A study of Homo sapiens with 14 samples.

Results

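The 10 genes described here encode receptors by which lymphocytes read cytokines and chemokines and find their way between tissues. CXCR4, CCR7, CCR9, S1PR1, IL7R, IL2RG, IL4R, IL10RA, IL21R and IL6ST were chosen by name, with earlier results of these data known, and all 10 were found among the 58440 genes of the deposited tables. Chemokine receptors and S1PR1 are G protein-coupled receptors that steer cell movement. The cytokine receptor chains have no enzyme activity of their own, work as pairs or larger complexes, and signal through JAK kinases and STAT transcription factors. IL2RG is the common gamma chain shared by the receptors for several interleukins, among them those built with IL7R, IL4R and IL21R, and IL6ST (gp130) is the shared signaling chain of the IL-6 family.

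RNA-seq was measured in HEK-293T cells, a human embryonic kidney line, in Jurkat cells, a human T cell leukemia line, and in mixtures of both. There were 7 conditions, in which HEK cells made up 100, 80, 60, 50, 40, 20 and 0% of the cells and Jurkat cells the remainder, with 2 libraries of each and 14 in all. The cells were untreated cultures of 1 stock of each line, mixed in suspension and pelleted, and no condition carried an added agent or allele. By their labels the libraries of each condition are technical replicates, and the sources name no separate cultures, so the p-values below measure only the spread between these libraries. The mixtures let each receptor be followed as the share of the line that carries it grew.

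Each library held between 4468822 and 28303668 counts on genes, with a median of 13505082, and ERCC spike-in RNA took a further share of 0.674 to 7.65% of all counts. ERCC spike-ins are synthetic RNAs, added here in a fixed volume to the extracted mRNA. A count of 3 was worth between 0.106 and 0.671 counts per 1000000 counts on genes (CPM), and the pure Jurkat libraries were the shallowest. The T cell markers chosen for Jurkat summed to 2961 and 3337 CPM in the pure Jurkat libraries and to 19.8 and 15.8 CPM in the pure HEK libraries, and all 10 were higher in Jurkat. All 10 epithelial, kidney and neural markers chosen for HEK were higher in HEK, with sums of 1563 and 1760 against 55.4 and 42.7 CPM. Of the lists for cells that neither line should hold, none of the 6 myeloid and 4 erythroid genes had enough counts for a test. Among the 5 B cell genes, CD79A was higher in Jurkat, at 6.04 CPM. The file names fall into 2 series, AS_1 and AS_2, whose meaning is not given in the sources used here. Both pure HEK libraries were AS_2 and both pure Jurkat libraries AS_1, so line and series cannot be told apart there.

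The sequence just before a start of transcription annotated in RefSeq is shown for 4 receptors: IL2RG and IL7R, with the largest differences between the lines, CXCR4, with the most counts among the receptors higher in Jurkat, and IL6ST, with like CPM in both. They come from the RefSeq table for GRCh38.p14, in which 9 of the 10 genes had at least 1 start, CCR7 being the exception. Each is written 5′ to 3′ on the strand of its gene, and bases that GENCODE assigns to an untranslated region or coding sequence of the gene were left out. By GENCODE the CXCR4 and IL7R stretches (250 and 201 bases) lie in introns of transcripts of the same gene, as do 221 bases of the IL2RG window. Only the IL6ST stretch (191 bases) lies outside all transcripts of its gene. Which start was used in these cells was not tested. Capitals mark the ETS core CCGGAA, the RUNX core TGTGGT and the GATA motif AGATAA.

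IL2RG, chrX:71111591-71111827, minus strand: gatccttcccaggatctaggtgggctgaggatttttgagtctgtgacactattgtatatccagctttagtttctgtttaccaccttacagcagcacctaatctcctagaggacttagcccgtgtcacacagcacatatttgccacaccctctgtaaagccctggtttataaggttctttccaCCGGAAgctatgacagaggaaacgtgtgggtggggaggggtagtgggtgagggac
IL7R, chr5:35856688-35856888, plus strand: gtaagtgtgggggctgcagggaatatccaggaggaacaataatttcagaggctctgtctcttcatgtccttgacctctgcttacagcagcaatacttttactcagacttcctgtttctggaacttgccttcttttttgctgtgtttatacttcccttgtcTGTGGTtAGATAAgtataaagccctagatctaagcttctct
CXCR4, chr2:136118150-136118399, minus strand: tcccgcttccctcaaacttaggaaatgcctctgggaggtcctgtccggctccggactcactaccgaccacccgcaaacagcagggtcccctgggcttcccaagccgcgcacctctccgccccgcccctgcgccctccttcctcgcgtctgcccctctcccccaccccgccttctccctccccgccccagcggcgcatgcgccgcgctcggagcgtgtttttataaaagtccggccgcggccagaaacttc
IL6ST, chr5:55995023-55995213, minus strand: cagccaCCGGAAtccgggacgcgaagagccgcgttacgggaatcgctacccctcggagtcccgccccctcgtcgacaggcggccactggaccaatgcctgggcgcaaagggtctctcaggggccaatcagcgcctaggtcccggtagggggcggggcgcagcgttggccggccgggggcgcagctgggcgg

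The ETS, RUNX, GATA and E-box motifs, bound by factors that act in lymphocytes, were searched on both strands of the 250 bases before each start, in 12 windows of 9 receptors and in 35116 windows of all genes. The ETS core was found in the windows of IL2RG and IL6ST, and in 14.5% of all windows. The RUNX core was found for IL7R and IL21R, against 11.0% of all windows, and in IL7R it stood 1 base before the GATA motif. The GATA motif was in the windows of IL7R and IL10RA (9.17% of all windows), and the E-box CAGATG or its reverse complement CATCTG was in 1 of 3 windows of CXCR4, in 1 of 2 of CCR9 and in that of IL21R (12.2%). IL6ST and IL4R, whose CPM did not differ between the lines, had windows of 73.6 and 80.8% G and C. Among the receptors higher in Jurkat, the windows of IL7R and IL2RG held 43.6 and 50.0%, that of S1PR1 64.4% and those of CXCR4 68, 55.6 and 51.6%, and the median of all windows was 58%. Unlike the stretches printed above, these windows were kept whole. They include untranslated bases of transcripts of the same gene, most for IL4R (145 of 250) and S1PR1 (127). The E-box of CXCR4 lies in a GENCODE exon of that gene. The motif matches are descriptions of letters in a window and were not tied to binding.

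In the comparison of the pure lines, 5 receptors were higher in Jurkat and none was higher in HEK when gene counts were scaled by TMM. TMM differs from CPM scaling, so fitted differences and CPM ratios need not be equal. Per spike-in count 4 were called higher in Jurkat, beside 3.22% of all genes tested, and 2 higher in HEK, beside 92.5%. IL2RG differed most, by 8.69 on the log2 scale, followed by IL7R, S1PR1, CCR7 and CXCR4 at differences of 4.78 to 5.63. IL4R and IL6ST had similar CPM in both lines, and CCR9, IL10RA and IL21R had too few counts in the pure lines to be tested. Thus 5 of the 7 receptors tested were called higher in Jurkat, beside 19.0% of all 15794 genes tested, and 0 of 7 were called higher in HEK, beside 24.2%. A gene was called at a Benjamini-Hochberg adjusted p under 0.05 in edgeR's quasi-likelihood test on the rounded expected counts. The median difference of the 7 was 5.04, and that of all genes tested was -0.07. Over all genes 8325 had an unadjusted p under 0.05. In these bulk libraries a lower level in a mixture cannot tell fewer cells with the mRNA from less mRNA per cell.

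**Figure D1:**
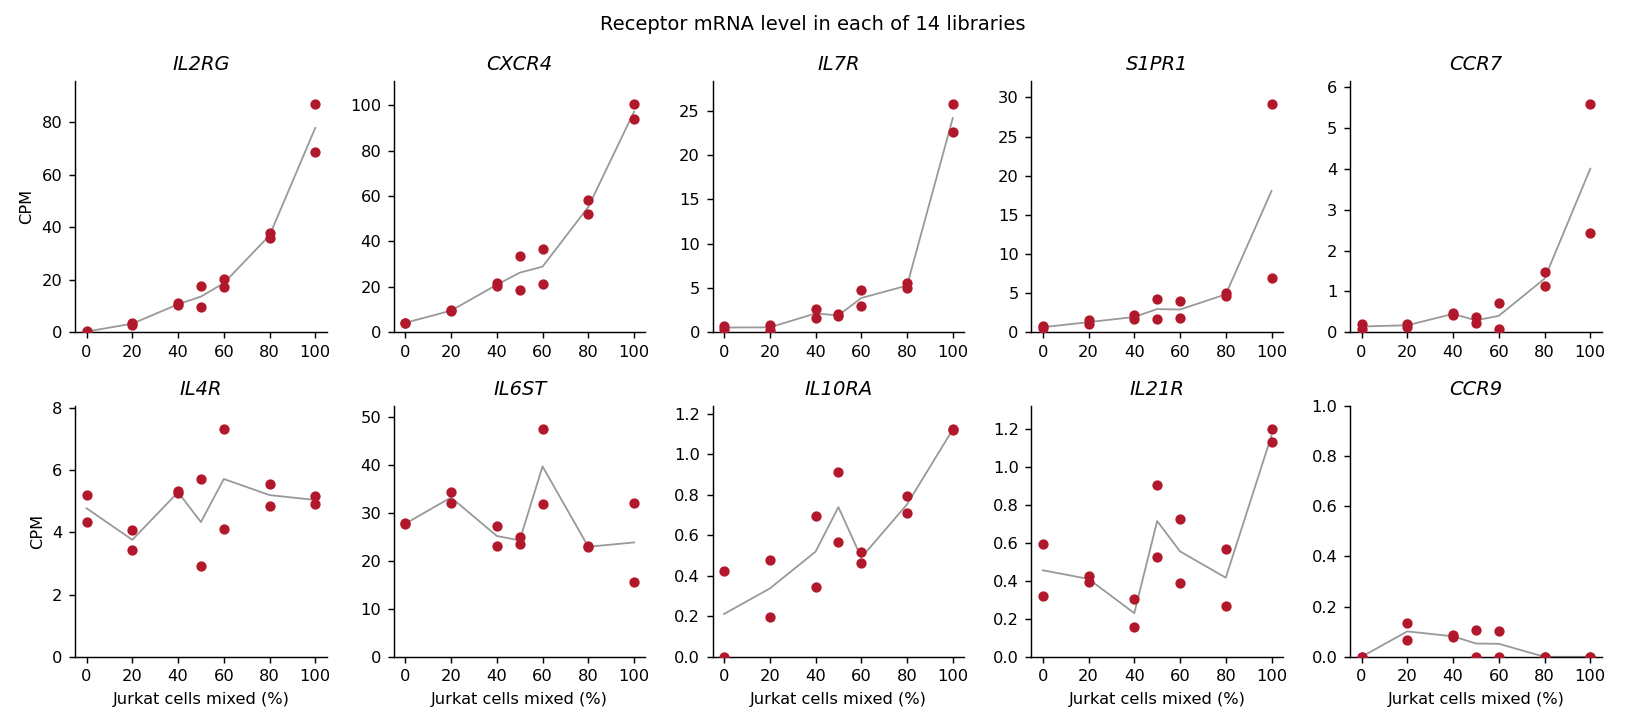
Level of each of the 10 receptor genes in CPM (counts per 1000000 gene counts, vertical axis, linear and scaled per panel) against the percentage of Jurkat cells in the mixture (horizontal axis). Points are the 14 libraries and lines join the means of 2 libraries; IL2RG reached 68.7 and 87.0 CPM in pure Jurkat from 0.32 and 0.13 CPM in pure HEK, while IL4R and IL6ST showed no such rise and CCR9 stayed at 3 counts or fewer.

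IL2RG (ENSG00000147168.12, chrX:71107404-71112108, minus strand) had the largest difference between the lines. The pure HEK libraries held 3 and 2 counts and the pure Jurkat libraries 307 and 540, or 0.32 and 0.13 against 68.7 and 87.0 CPM. Both HEK libraries were at or below the 3 counts taken as the floor, and no Jurkat library came near them. The pooled count ratio was 391, with an exact 95% counting interval of 167 to 1206, and the fitted difference was 8.69 ± 0.43 (SE; edgeR adjusted p = 0.00064). An unnamed gene of the annotation overlaps IL2RG on the same strand, so reads of the overlap could be counted for either.

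IL7R (ENSG00000168685.14, chr5:35852695-35879603, plus strand) binds interleukin 7 and, with another partner, TSLP. Its expected counts were 3.31 and 10.64 in HEK and 101 and 160.14 in Jurkat, that is 0.35 and 0.70 against 22.6 and 25.8 CPM. The lines did not overlap, and the Jurkat libraries lay close together. The fitted difference was 5.63 ± 0.39 (SE; edgeR adjusted p = 0.00084) and the pooled count ratio was 43.2 (counting interval 25.2 to 79.7).

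CXCR4 (ENSG00000121966.6, chr2:136114349-136119177, minus strand), the receptor for CXCL12, was measurable in both lines. The pure HEK libraries had 4.02 and 4.22 CPM, from 38 and 64 counts, and the pure Jurkat libraries 100.7 and 93.8 CPM. Replicates of each line differed little beside the gap between the lines. The pooled count ratio was 23.3 (counting interval 19.0 to 28.9), and the fitted difference was 4.78 ± 0.23 (SE; edgeR adjusted p = 0.00064). The spread of CXCR4 between replicates, seen in this SE, was the smallest of the 7 receptors tested.

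S1PR1 and CCR7 guide lymphocytes out of and into lymph nodes, by sphingosine 1-phosphate and by the chemokines CCL19 and CCL21. S1PR1 (ENSG00000170989.8, chr1:101236865-101243713, plus strand) had 0.74 and 0.53 CPM in HEK and 6.94 and 29.2 CPM in Jurkat. Both Jurkat libraries were above both HEK libraries, but they differed from each other more than the libraries of any other receptor that passed the test. The fitted difference was 5.09 ± 0.85 (SE; edgeR adjusted p = 0.0084). It was 3.69 without pure Jurkat library 2 and 5.78 without pure Jurkat library 1, and S1PR1 was called in all 4 fits that left out 1 pure library.

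CCR7 (ENSG00000126353.3, chr17:40553769-40565472, minus strand) rested on few counts: 2 and 1 in HEK against 25 and 15 in Jurkat. Its levels were 0.21 and 0.07 CPM in HEK and 5.59 and 2.42 CPM in Jurkat. The HEK libraries were under the floor, and the pooled ratio of 30.7 had a wide counting interval of 9.79 to 155. The fitted difference was 5.04 ± 0.77 (SE; edgeR adjusted p = 0.0065).

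IL4R and IL6ST made up like shares of the mRNA of both lines. IL4R (ENSG00000077238.13, chr16:27313668-27364778, plus strand), the ligand-binding chain for interleukin 4, had 4.34 and 5.21 CPM in HEK and 4.92 and 5.16 CPM in Jurkat. The ranges overlapped, and the difference was 0.30 ± 0.28 (SE; edgeR adjusted p = 0.43). The pooled ratio was 1.04 with a counting interval of 0.738 to 1.44. IL6ST (ENSG00000134352.19, chr5:55935095-55995022, minus strand) had 27.9 and 27.6 CPM in HEK and 15.7 and 32.1 CPM in Jurkat, with a difference of 0.02 ± 0.37 (SE; edgeR adjusted p = 0.97). The Jurkat libraries lay on either side of both HEK libraries, and without pure Jurkat library 2 the difference was -0.60.

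IL10RA, IL21R and CCR9 were at or near the limit of detection. IL10RA, the ligand-binding chain for interleukin 10, had 4 and 0 counts in HEK and 5 and 7 in Jurkat, a pooled ratio of 6.92 with a counting interval of 2.10 to 29.4. IL21R, the interleukin 21 chain that pairs with IL2RG, had 3 and 9 counts in HEK and 5.37 and 7 in Jurkat, and its interval of 0.948 to 5.61 held no clear direction. Without the filter on low counts the differences were 2.62 for IL10RA (edgeR adjusted p = 0.066) and 1.297 for IL21R (edgeR adjusted p = 0.35). CCR9, a gut-homing receptor for CCL25, had 0 counts in all 4 pure libraries and at most 3 in any library. A count of 0 allows up to 3 counts, or 0.671 CPM in the shallowest library, so CCR9 was not detectable at this depth rather than shown to be absent. IL21R, IL4R, IL6ST and CCR9 overlap genes on the opposite strand in GENCODE, and whether reads were counted by strand is not given in the sources used here.

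On the deposited TPM scale, in which counts are divided by transcript length, the order of the receptors differed between the lines. By the study's methods the sequencing linker and barcode were on the oligo-dT primer, so counts need not grow with transcript length. Whether TPM ranks different genes rightly in these libraries was not tested, and the order below holds for that scale only. In pure Jurkat, IL2RG (47.4 and 71.1 TPM) and CXCR4 (59.0 and 53.9) stood highest and their ranges overlapped. IL7R followed at 22.3 and 16.8 TPM, then IL6ST at 10.2 and 11.8. S1PR1 (2.33 and 9.60), IL4R (2.31 and 3.83) and CCR7 (2.52 and 1.07) formed a lower group with overlapping ranges. In pure HEK, IL6ST led with 23.0 and 18.1 TPM, and CXCR4 (2.39 and 2.53) and IL4R (1.93 and 3.33) came next with overlapping ranges.

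Scaling to the spike-ins changed the picture for the receptors that were alike in CPM. A pure HEK library yielded 147 and 97.3 gene counts per ERCC count and a pure Jurkat library 12.1 and 12.3. The ratio of their means was 10.0. With 80% Jurkat cells this ratio implies a Jurkat RNA share of 28.5%, while 779 other genes, described below, gave 40.4 and 38.4%. The spike-in share was the lower in every mixture. The paper reports a smaller ratio from the spike-ins. Replicates with 20% Jurkat cells yielded 46.6 and 123 gene counts per ERCC count. The folds below rest on this scale, and which estimate is nearer was not tested. Counted per 10000 ERCC counts, IL6ST was at 41.1 and 26.9 in HEK against 1.89 and 3.95 in Jurkat, 11.6-fold higher in HEK by the means. IL4R was at 6.40 and 5.07 against 0.59 and 0.64, 9.32-fold higher in HEK. IL2RG stayed higher in Jurkat, at 8.30 and 10.7 against 0.47 and 0.13, and CXCR4 was 2.36-fold higher in Jurkat, at 12.2 and 11.6 against 5.93 and 4.11.

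In the edgeR fit with spike-in scaling, the median difference of all genes moved from -0.07 to -3.61, and the calls from 3002 higher in Jurkat and 3825 higher in HEK to 509 and 14616. IL4R (-3.20) and IL6ST (-3.53) were then called higher in HEK, with adjusted p of 7.8e-07 and 7.3e-10. IL2RG (5.27), IL7R (2.26), S1PR1 (1.58) and CXCR4 (1.26) remained called higher in Jurkat, with edgeR adjusted p of 1.0e-10, 0.0016, 0.026 and 0.026, and CCR7 (1.69) was not, at an edgeR adjusted p of 0.074. An error in the spike-in total of a library is shared by all its genes, so these p-values are too small. Relative to the median of all genes the receptors hardly moved: IL2RG stood 8.76 above it with TMM scaling and 8.88 above it per spike-in, CXCR4 4.85 and 4.86, and IL6ST 0.09 and 0.07.

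**Figure D2:**
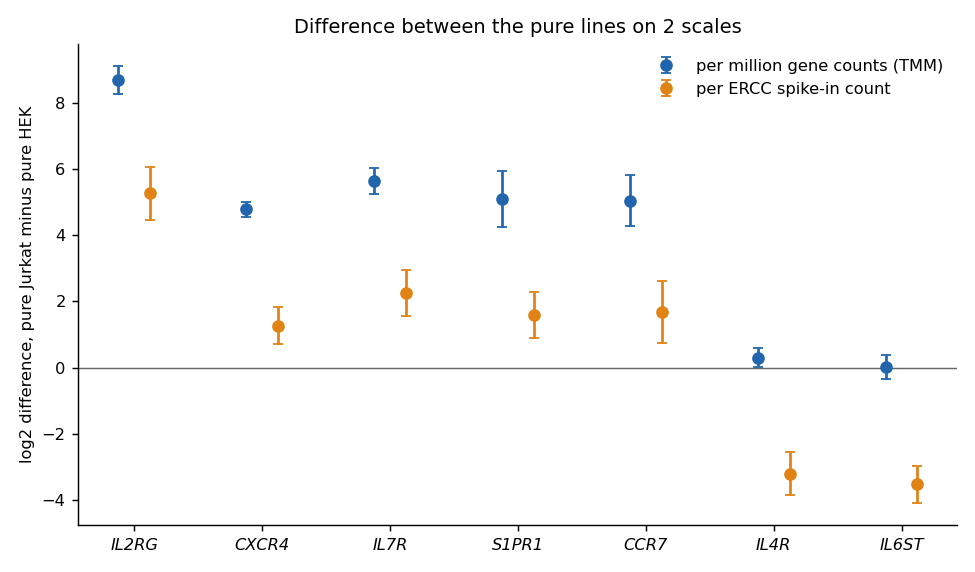
Log2 difference between pure Jurkat and pure HEK (vertical axis) for the 7 receptors tested, with counts scaled to gene counts (TMM, blue) or per ERCC spike-in count (orange). Bars are standard errors of the edgeR fit with 2 libraries a line; IL4R moved from 0.30 to -3.20 and IL6ST from 0.02 to -3.53, while IL2RG was at 8.69 and 5.27.

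The chains that these receptors pair with differed between the lines. Differences between the pure lines given below for single listed genes are with TMM scaling. Of 36 other type I and II cytokine receptor chains, 13 were tested, of which 2 were higher in Jurkat, 6 higher in HEK and 5 did not pass, while over all genes 19.0% and 24.2% were called in these directions. Per spike-in count all 13 were called higher in HEK, as were 92.5% of all genes tested. Their median difference was -0.88, beside -0.07 for all genes tested. IL13RA1, which pairs with IL4R in the receptor for interleukins 4 and 13 found mainly outside lymphocytes, had 164 and 303.92 expected counts in HEK and 2.19 and 0 in Jurkat (difference -6.31, edgeR adjusted p = 0.0024; pooled ratio of Jurkat to HEK 0.0108, counting interval 0.00119 to 0.0358). IL4R was thus at like CPM in both lines, with IL13RA1 beside it in HEK and IL2RG beside it in Jurkat.

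Among the chains that pair with IL6ST, IL6R and LIFR were called higher in HEK, IL11RA (-0.28, edgeR adjusted p = 0.62) and IL27RA (0.37, edgeR adjusted p = 0.28) did not pass, and OSMR, CNTFR and IL31RA had too few counts to be tested. IL6R, the interleukin 6 chain, had 68 and 97.4 expected counts in HEK and 0 and 2.02 in Jurkat (difference -4.87, edgeR adjusted p = 0.0052), a pooled ratio of Jurkat to HEK of 0.0282 with a counting interval of 0.00336 to 0.103. LIFR, the chain for leukemia inhibitory factor, had 314.83 and 320.63 in HEK and 1 and 1 in Jurkat (difference -6.86, edgeR adjusted p = 0.0010), a ratio of 0.00726 with an interval of 0.000878 to 0.0263. IL10RB, the partner of IL10RA, was higher in Jurkat by 0.97 (edgeR adjusted p = 0.017), at 52.5 against 31.4 CPM. Per 10000 ERCC counts IL10RB was lower in Jurkat, at 5.91 and 6.90 against 47.6 and 29.7 in HEK. IL2RB, which joins IL2RG in the interleukin 2 and 15 receptors, had 0 and 7 counts in Jurkat and 0 and 3 in HEK, and IL2RA had 0 in all 4 pure libraries.

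Of 21 JAK, STAT and SOCS family genes and phosphatases of that pathway, 18 were tested. Of these 11 were higher in Jurkat, beside 19.0% of all genes tested, 0 higher in HEK, beside 24.2%, and 7 did not pass. Per spike-in count 2 were called higher in Jurkat (3.22% of all genes) and 15 higher in HEK (92.5% of all genes). The median difference was 1.22, or 1.00 from CPM ratios with STAT5A at its lower bound. JAK3, the kinase that binds IL2RG, was higher in Jurkat by 2.68 (edgeR adjusted p = 0.013), at 9.52 against 1.75 CPM. STAT5A, a STAT used by IL2RG and IL7R receptors, had 129.74 and 157.26 expected counts in Jurkat and 0 in both HEK libraries, at least 221-fold higher against a floor of 3 counts over both HEK libraries. PTPN6, a phosphatase that restrains these receptors, was higher in Jurkat by 5.21 (edgeR adjusted p = 0.0012), at 42.2 against 1.33 CPM. STAT6, which acts below IL4R, was higher in Jurkat by 1.75 (edgeR adjusted p = 0.0052), while JAK1, a kinase bound by most chains of this list, had a difference of 0.10 (edgeR adjusted p = 0.86). Per 10000 ERCC counts STAT6 was lower in Jurkat, at 2.92 and 3.91 against 14.5 and 9.41 in HEK. JAK3 was at 1.54 and 0.77 in Jurkat against 3.43 and 1.14 in HEK, with overlapping ranges. STAT5A stayed higher in Jurkat on that scale, at 3.51 and 3.12 against 0 in both HEK libraries.

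**Figure D3:**
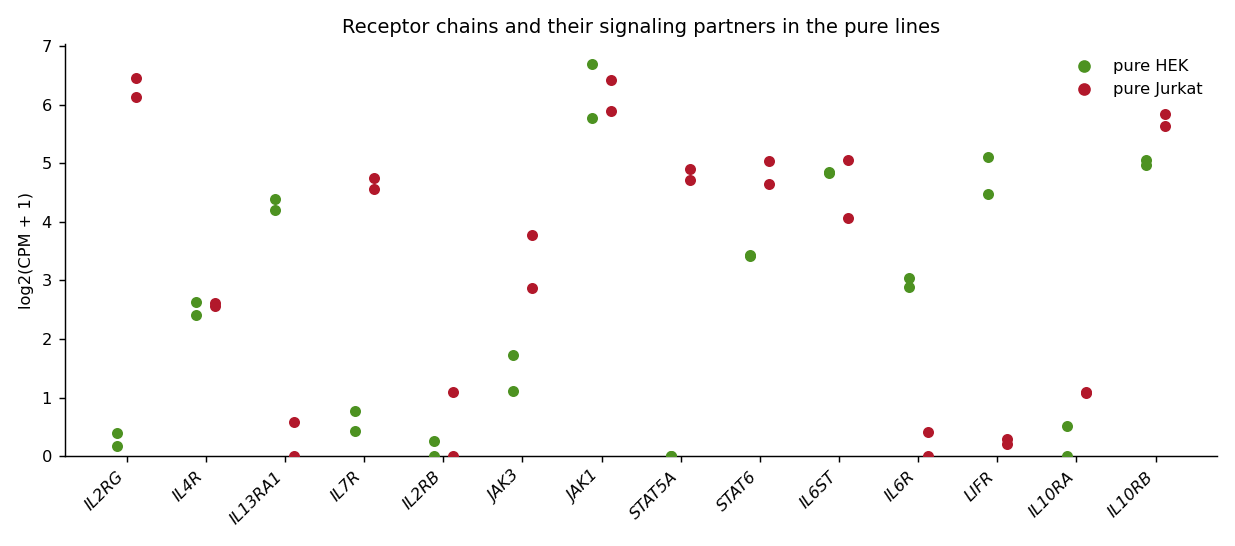
Level on the log2(CPM + 1) scale (vertical axis) of 5 of the receptors, IL2RG, IL4R, IL7R, IL6ST and IL10RA, and 9 genes of their partner chains, kinases and STATs in the 2 pure HEK (green) and 2 pure Jurkat (red) libraries. IL4R and IL6ST overlap between the lines, IL13RA1, IL6R and LIFR are high in HEK only among these 4 libraries, and IL2RG, IL7R and STAT5A in Jurkat only.

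Among 20 other chemokine receptors 4 were tested. CCR4, CCR8 and CX3CR1 were higher in Jurkat and CCR10 was higher in HEK, all at a low level, beside 19.0 and 24.2% of all genes tested. Per spike-in count 1 was called in each direction, beside 3.22% of all genes higher in Jurkat and 92.5% higher in HEK. Their median difference was 4.62, or 4.00 from CPM ratios with CCR8 at its bound, since it had 7 and 12 counts in Jurkat and 0 in both HEK libraries. CX3CR1 reached 2.65 CPM in Jurkat (edgeR adjusted p = 0.0034; pooled ratio 33.4, counting interval 8.46 to 289), against 97.3 CPM of CXCR4. Of 16 genes of sphingosine phosphate signaling and lymphocyte trafficking, 11 were tested (median difference 3.09). Of these 7 were higher in Jurkat and 1 higher in HEK, beside the same 19.0 and 24.2% of all genes, and 3 did not pass. Per spike-in count 3 were higher in Jurkat and 5 higher in HEK, beside the same 3.22 and 92.5% of all genes. KLF2, a transcription factor that activates S1PR1 in T cells, was higher in Jurkat by 4.64 (edgeR adjusted p = 0.0011). The integrin gene ITGAL was higher in Jurkat by 6.54 (edgeR adjusted p = 0.00064), and CD69, which binds S1PR1 and takes it off the surface, had 23 and 22 counts in Jurkat against 1 and 0 in HEK (edgeR adjusted p = 0.0036; pooled ratio 103.8, counting interval 17.7 to 4188). S1PR3, another receptor for the ligand of S1PR1, was at 17.8 CPM in Jurkat and 2.46 CPM in HEK (difference 3.09, edgeR adjusted p = 0.0023).

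Of 16 genes of receptor coupling and desensitization 15 were tested. Of these 7 were higher in Jurkat and 3 higher in HEK, again beside 19.0 and 24.2% of all genes, and 5 did not pass. Per spike-in count 2 were higher in Jurkat and 11 higher in HEK, again beside 3.22 and 92.5% of all genes. Their median difference was 0.72, or 0.50 from CPM ratios with genes at 0 in a line at their bound. GNAI2 and GNAI1 encode inhibitory G protein subunits that chemokine receptors use. With TMM scaling GNAI2 was higher in Jurkat by 2.96 (edgeR adjusted p = 0.0026), and its difference per spike-in count is not given here. GNAI1 had 112 and 121 counts in HEK and 0 in both Jurkat libraries. DOCK2, which carries chemokine signals to the cytoskeleton of lymphocytes, had 158 and 314 counts in Jurkat and 0 in both HEK libraries. RGS16, which shortens G protein signals, had 247 and 396 counts in HEK and 1 and 1 in Jurkat (difference -6.80, edgeR adjusted p = 0.00064), a pooled ratio of Jurkat to HEK of 0.00717 with a counting interval of 0.000867 to 0.0260. Of 21 ligand genes 3 were tested (median difference -1.95), with 0 higher in Jurkat and 1 higher in HEK, beside 19.0 and 24.2% of all genes. All 3 were higher in HEK per spike-in count, as were 92.5% of all genes. The ligand gene that passed was CXCL12, with a difference of -4.24 (edgeR adjusted p = 0.016). It had 17 and 42 counts in HEK and 0 and 1 in Jurkat (pooled ratio 0.0391, counting interval 0.000973 to 0.226). The ligand and its receptor CXCR4 thus stood higher in opposite lines.

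In the mixtures, the same 5 receptors rose with the share of Jurkat cells. The slope was fitted over the 10 mixed libraries alone, without the pure ones, as log2 per 10 percentage points of Jurkat cells. Of the 9 receptors tested 5 were called rising, beside 4.82% of 18516 genes, and 0 of 9 falling, beside 0.643%. Over all genes 3438 had an unadjusted p under 0.05. The median slope was 0.32 for the receptors and -0.01 for all genes.

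IL2RG had 2.84 and 3.61 CPM with 20% Jurkat cells, 11.1 and 10.2 with 40%, 9.61 and 17.5 with 50%, 17.2 and 20.2 with 60%, and 35.9 and 37.8 with 80%. Libraries of neighboring mixtures overlapped from 40 to 60% and not elsewhere. Its slope was 0.57 ± 0.041 (SE; edgeR adjusted p = 6.7e-06), and the mean at 80% was 11.4-fold that at 20%.

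CXCR4 had 9.23 and 9.75 CPM with 20% Jurkat cells, 21.6 and 20.2 with 40%, 18.7 and 33.8 with 50%, 21.3 and 36.5 with 60%, and 58.2 and 52.3 with 80%. Again the mixtures from 40 to 60% overlapped. The slope was 0.41 ± 0.040 (SE; edgeR adjusted p = 3.9e-05) and the rise from 20 to 80% was 5.82-fold.

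IL7R had 0.80 and 0.28 CPM with 20% Jurkat cells, above and below both pure HEK libraries, 2.67 and 1.56 with 40%, 1.80 and 2.00 with 50%, 4.72 and 3.01 with 60%, and 5.01 and 5.52 with 80%. Its slope was 0.52 ± 0.085 (SE; edgeR adjusted p = 0.0023). The step from 80% to pure Jurkat, to 22.6 and 25.8 CPM, was the largest of its steps.

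S1PR1 had 1.05 and 1.50 CPM with 20% Jurkat cells, 1.72 and 2.16 with 40%, 1.63 and 4.27 with 50%, 1.85 and 3.93 with 60%, and 4.62 and 5.05 with 80%, with a slope of 0.32 ± 0.063 (SE; edgeR adjusted p = 0.0079). CCR7 stayed at or below 0.72 CPM up to 60% Jurkat cells and reached 1.49 and 1.14 CPM at 80%. Its slope of 0.47 ± 0.12 (SE; edgeR adjusted p = 0.0397) lost its call in 7 of the 10 fits that left out 1 mixed library, with an adjusted p of up to 0.29. The 7 were both libraries of 80%, 60% replicate 1, 50% replicate 1, 40% replicate 2 and both libraries of 20% HEK cells. S1PR1 lost its call without 20% HEK replicate 2, at an edgeR adjusted p of 0.052.

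The slopes of the other 4 receptors did not pass. IL4R had a slope of 0.08 (edgeR adjusted p = 0.43) and ranged from 2.93 to 7.34 CPM over the mixtures. IL6ST had a slope of -0.03 (edgeR adjusted p = 0.83), and its highest value, 47.6 CPM, was in a library with 60% Jurkat cells whose replicate held 31.8 CPM. IL10RA (0.17, edgeR adjusted p = 0.35) and IL21R (0.05, edgeR adjusted p = 0.87) stayed under 1 CPM in all mixtures.

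Chi-square over genes divided by its degrees of freedom was 147.7 for the 50% pair of libraries and 62.96 for the 60% Jurkat pair. It was 20.77 to 37.25 in the other pairs. This measure grows with depth where replicates differ beyond counting error, so it does not rank pairs of unlike depth. The 50% pair held 28303668 and 16404261 gene counts, and the pure Jurkat pair, at 37.25, held 4468822 and 6204316. At 50% and at 60% Jurkat cells replicate 2 held more CXCR4, IL2RG, S1PR1 and IL4R in CPM than replicate 1. At 60%, replicate 2 held less IL7R (3.01 against 4.72 CPM) and less IL6ST (31.8 against 47.6 CPM). At 50% replicate 1 was AS_1 and replicate 2 AS_2, while at 60% both were AS_1. The part of these libraries in the slopes was tested by leaving each out: CXCR4 kept a slope of 0.40 to 0.42 and IL2RG of 0.53 to 0.59.

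The mixed libraries of AS_1 held 40 to 80% Jurkat cells and those of AS_2 held 20 to 50%. Series and percentage are thus partly confounded, and slopes within the series cover unlike ranges. Within the 6 mixed libraries of AS_1 the slope was 0.42 for CXCR4 and 0.52 for IL2RG, with edgeR adjusted p of 0.047 and 0.026. Within the 4 of AS_2 it was 0.54 and 0.76, with edgeR adjusted p of 0.025 and 0.023. IL7R had slopes of 0.45 and 0.66, S1PR1 of 0.37 and 0.46 and CCR7 of 0.56 and 0.34 within AS_1 and AS_2, and none of these 3 passed within either series. With the series as a term in the fit of all 10, CXCR4 (0.46), IL2RG (0.60) and S1PR1 (0.40) passed, and IL7R (0.51, edgeR adjusted p = 0.056) and CCR7 (0.51, edgeR adjusted p = 0.20) did not.

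Per spike-in count, the rise was smaller for each of these 5 receptors and 3 of their calls were lost. The slopes were 0.27 for IL2RG (edgeR adjusted p = 0.017) and 0.30 for IL7R (edgeR adjusted p = 0.030), but 0.11 for CXCR4 (edgeR adjusted p = 0.28), 0.18 for CCR7 (edgeR adjusted p = 0.31) and 0.02 for S1PR1 (edgeR adjusted p = 0.89). IL6ST fell by 0.32 per 10 points (edgeR adjusted p = 0.0087), and IL4R had a slope of -0.22 (edgeR adjusted p = 0.053). In this fit 225 genes (1.22%) rose and 13654 (73.7%) fell, against 893 and 119 with TMM scaling.

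**Figure D4:**
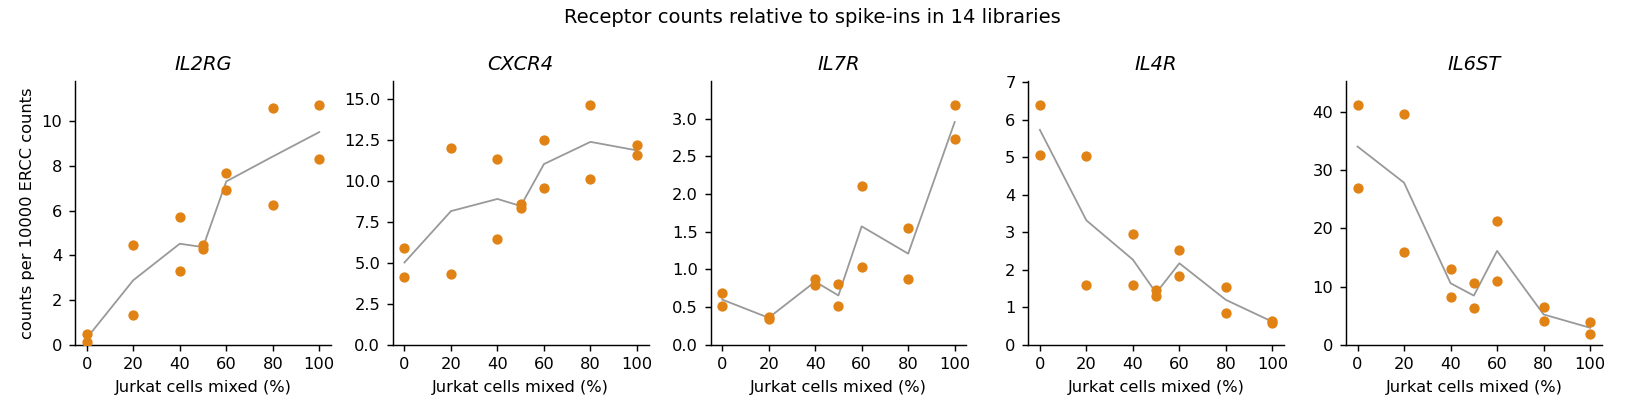
Counts per 10000 ERCC spike-in counts (vertical axis, linear and scaled per panel) of IL2RG, CXCR4, IL7R, IL4R and IL6ST against the percentage of Jurkat cells (horizontal axis) in 14 libraries, with lines joining the means of 2 libraries. IL4R went from 6.40 and 5.07 in pure HEK to 0.59 and 0.64 in pure Jurkat, and IL6ST from 41.1 and 26.9 to 1.89 and 3.95.

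The genes around the receptors moved with them along the mixtures to different degrees. Over all genes tested 4.82% were called rising and 0.643% falling, and the counts below stand beside these shares. All 10 T cell markers rose (median slope 0.54), while 1 of 10 HEK markers fell (median -0.09). Of the JAK, STAT and SOCS genes 4 of 19 tested rose, among them JAK3 (0.33, edgeR adjusted p = 0.0056), STAT5A (0.60, edgeR adjusted p = 1.7e-05) and STAT6 (0.13, edgeR adjusted p = 0.026). Of the trafficking genes 6 of 13 rose, with KLF2 at 0.33 (edgeR adjusted p = 0.00084). Of the partner chains 1 of 20 passed, LIFR, with a slope of -0.21 (edgeR adjusted p = 0.024), and IL13RA1 had a slope of -0.12 (edgeR adjusted p = 0.26). Of the other chemokine receptors 2 of 6 rose, of the coupling genes 4 of 15 rose and 1 fell, and 0 of 4 ligand genes passed. The median slopes were 0.06 for the JAK, STAT and SOCS genes, 0.14 for trafficking, -0.08 for partner chains, 0.13 for chemokine receptors, 0.09 for coupling and -0.04 for ligands, and these lists were not refitted per spike-in count.

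The third comparison asked whether each mixture held the receptor level that its share of Jurkat RNA would give. That share was estimated in each library as the median over 779 genes other than the receptors and the listed genes. It was 3.97 and 3.75% with 20% Jurkat cells, 8.44 and 9.17% with 40%, 14.6 and 13.1% with 50%, 18.3 and 17.3% with 60%, and 40.4 and 38.4% with 80%. The expected level was the mix of the mean levels of the 2 pure lines in that proportion. All 10 mixed libraries thus share the error of the same 4 pure libraries. The test leaves this error out, so the departures of the 10 libraries are not independent of each other. The log2 ratio of measured to expected CPM, with 0.5 CPM added to both, was tested in limma for a mean departure greater than 1.

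No receptor of the 6 tested was called as departing by that much: 0 of 6 were called above, beside 0.00% of 15950 genes, and 0 of 6 below, beside 0.0313%. In simulated data this test recovered 0% of genes changed 2-fold, which is its threshold, and 94% of those changed 4-fold. Over all genes 53 had an unadjusted p under 0.05, and the receptors' adjusted p were all 1. CXCR4 lay above the expected level in 10 of 10 mixed libraries, with a mean of 0.48 ± 0.34 (SD, n = 10) and measured to expected ratios of 1.01 to 2.06. IL2RG lay above in 8 of 10, with a mean of 0.29 ± 0.33 (SD, n = 10). The median of the 10 T cell markers was 0.51, and that of all genes -0.01. The lists of partner, chemokine, trafficking, JAK, coupling and ligand genes had medians of -0.24 to 0.10, and none of their genes passed. The -0.24 is the value of CCR10 alone, the only 1 of the other chemokine receptors tested here, and only 3 ligand genes were tested.

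IL7R lay below its expected level in 9 of 10 mixed libraries, with a mean of -0.64 ± 0.41 (SD, n = 10) and ratios of 0.198 to 1.06. At 80% Jurkat cells, where the share from the 779 genes was 40.4 and 38.4%, the level of IL7R would have matched a Jurkat share of 18.9 and 21.1%, and that of CXCR4 one of 58.1 and 51.7%. IL2RG gave 46.0 and 48.4% there. S1PR1 had a mean of -0.26, but of 0.51 without pure Jurkat library 2, which held 29.2 CPM. IL4R (-0.03) and IL6ST (0.06) lay on both sides of the expected level.

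**Figure D5:**
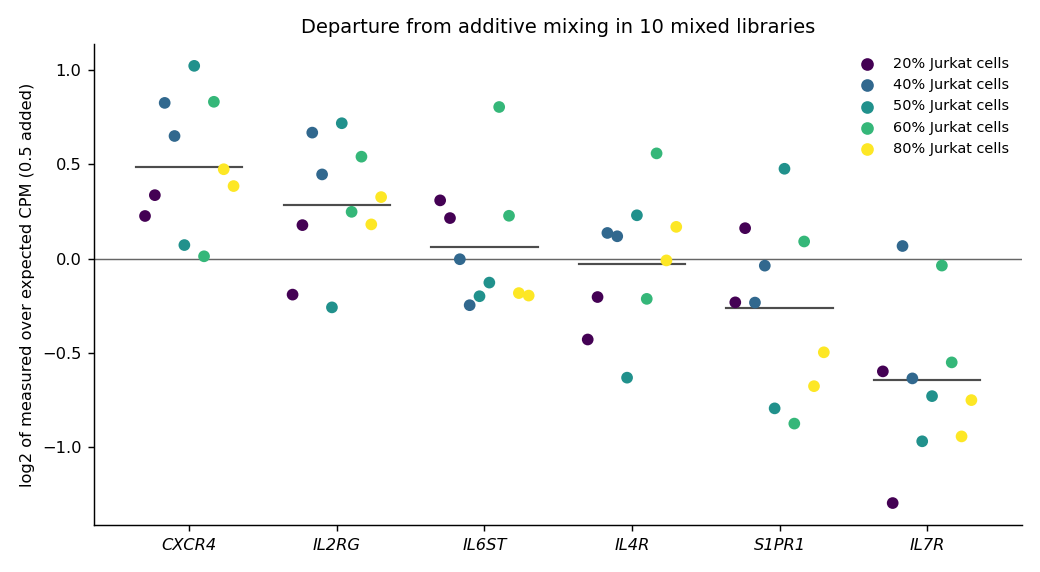
Log2 ratio of measured to expected CPM, with 0.5 CPM added to both (vertical axis), of 6 receptors in the 10 mixed libraries. Points are libraries colored by the percentage of Jurkat cells and bars are means; CXCR4 lies above 0 in all 10 (mean 0.48) and IL7R below 0 in 9 (mean -0.64), while none passed the test for a departure greater than 1.

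For each receptor with a mean of at least 1 CPM, the gene with the most similar course over the 14 libraries was sought by the root mean square difference of centered log2(CPM + 1) values. For IL2RG it was CD247, the zeta chain of the T cell receptor complex, at 0.16, and for CXCR4 it was KCNAB2, at 0.11. For IL7R it was ZNF91 (0.24), for S1PR1 ZNF160 (0.33), for IL4R ASB3 (0.11) and for IL6ST XXYLT1 (0.17). This likeness is a description over 14 libraries, in which genes of a library share its depth and its proportion of the lines.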

How the data were processed

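Per the labels, poly(A) RNA was taken up with oligo(dT) beads and ERCC spike-ins were added before barcoded cDNA was made. The authors aligned the reads with STAR 2.6.1b to GRCh38 with the ERCC sequences and counted genes with RSEM 1.3.1. The deposited expected counts of each library are raw estimates, and the deposited TPM were scaled by RSEM with the spike-ins included. By the study's methods the libraries are strand-specific and were pooled after first-strand synthesis by an Actb qPCR. The series table repeats the expected counts and was not used.

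Identifiers without version were looked up in GENCODE 44 (GRCh38) for symbols and coordinates. This named 57754 of 58440 genes, and those without a name took up to 0.327% of the counts of a library. CPM left out the spike-ins. Expected counts were rounded and tested with edgeR 4.0.16 (TMM, filterByExpr, quasi-likelihood fit, Benjamini-Hochberg adjustment over all genes tested) for the pure lines and for the slope over the mixtures. Additive mixing was tested with limma 3.58.1 (treat) in genes with a mean of at least 1 CPM. RNA shares were estimated from genes with a log2 difference of at least 3 and at least 20 CPM in the higher line. Counting intervals of pooled ratios are exact at 95%, and like the floor of 3 counts they cover counting error only. Fitted log2 differences of genes with 0 counts in a line depend on the prior count and are not given.

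The 10 receptors and the gene lists (partner chains, other chemokine receptors, trafficking, JAK, STAT and SOCS, coupling, ligands, T cell, HEK, B cell, myeloid and erythroid markers) were chosen with earlier results of these data known. All 10 receptors are reported; of each list the text names up to 5 genes, those with the largest differences that passed and those known as partners or ligands of the receptors. KLF2, S1PR3 and the choice among known partners were settled after their values were seen. Replicates differed beyond counting error in every condition, and all libraries were kept separate. On simulated data for the pure lines, in which all genes had the same dispersion, the test recovered 40% of genes changed 2-fold and 98% of genes changed 4-fold. The simulation does not cover genes whose replicates differ more, such as S1PR1 in pure Jurkat (6.94 and 29.2 CPM). Protein sequences were not analysed here. Single genes of 2 lists are counted in their lists but not reported here. R 4.3.3 and Python 3.11.15 were used. Alternatives were scaling by ERCC counts, no filter, DESeq2 1.42.0, the file series, other offsets and RNA shares, and leaving out each library.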

Additional observations from a re-analysis of the deposited data

How the results depend on the processing

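Between the pure lines, all 5 receptors called higher in Jurkat kept their call without the filter, with DESeq2 and in each fit without 1 library. With spike-in scaling CCR7 lost it, 509 genes were higher in Jurkat and 14616 in HEK, and IL4R and IL6ST turned to -3.20 and -3.53. IL6ST was -0.13 without the filter and ranged from -0.60 to 0.45 with 1 library left out, where the calls ranged from 1508 to 2964 higher in Jurkat and 2016 to 3523 higher in HEK.

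Along the mixtures, rising genes numbered 225 with spike-in scaling, 443 with the file series as a term, 203 and 161 within the 6 and 4 libraries of a series, and 564 to 992 with 1 library left out. Falling genes numbered 13654, 37, 0 and 404 in the same settings, 71 without the filter, 271 with DESeq2 and 22 to 232 with 1 library left out. With spike-in scaling IL4R, IL10RA and IL21R turned to -0.22, -0.14 and -0.21. The cause of these changes was not tested; fits within a series hold fewer libraries.

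Against additive mixing, 1 gene was called above with the RNA share from spike-ins, 1 with an offset of 0.1 CPM and 0 to 5 with 1 library left out. Those below numbered 2 with means of a mixture, 3 with an offset of 2 CPM, 13 without the filter and 4 to 22 with 1 library left out. S1PR1 was 0.054 with the spike-in share and ranged from -0.78 to 0.51 with 1 library left out, IL4R from -0.122 to 0.0762 and IL6ST from -0.0218 to 0.14. No receptor was called in any of these.

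No paired analysis was possible because the labels number no replicates; the numbers used here only name the libraries of a condition and tie none to a library of another condition. Depth limits IL10RA, IL21R, CCR9 and CCR7, which rest on few counts, and 2 libraries a line limit every difference.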
